A study of Mus musculus with 514 samples.

Results

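The 48 genes described here encode the subunits, regulators and assembly factors of the proteasome. They were chosen by name, as every gene whose symbol is Psm followed by a letter from a to g and a number, and they are 48 of the 55168 named genes of the full-length expression table. The symbols comprise 8 alpha ring genes (Psma1 to Psma8), 7 constitutive beta ring genes (Psmb1 to Psmb7), 4 induced or tissue-restricted beta genes (Psmb8 to Psmb11), 6 ATPases of the base (Psmc1 to Psmc6), 3 other base subunits (Psmd1, Psmd2 and Psmd4), 8 lid subunits (Psmd3, Psmd6, Psmd7, Psmd8 and Psmd11 to Psmd14), 3 base assembly chaperones (Psmd5, Psmd9 and Psmd10), 4 activators (Psme1 to Psme4), 1 inhibitor (Psmf1) and 4 core assembly chaperones (Psmg1 to Psmg4).

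The proteasome degrades proteins that carry ubiquitin chains. Its core particle is a barrel of stacked alpha and beta rings with the proteolytic sites inside, and the regulatory particle, made of a base and a lid, binds, unfolds and feeds ubiquitinated substrates into it. Psme1 and Psme2 form the PA28 alpha-beta activator, a ring that opens the core without ubiquitin or ATP and is known for its role beside the interferon-induced beta subunits in making peptides for antigen presentation. In oocytes and early embryos the proteasome takes part in meiotic exit and in the removal of maternal proteins.

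Polyadenylated RNA was sequenced from single mouse MII oocytes (OoMII), early (E2C) and late (L2C) embryos of the 2-cell stage, and embryos of 4 cells (4C) or 8 cells (8C), after deletion of the nuclear receptor genes Nr5a2, Esrrb or both. The series has 514 samples, of which 263 full-length libraries in 22 groups and 110 libraries of 5′ reads that carry a unique molecular identifier (UMI) gave the values used here. The values are transcripts per 1000000 (TPM), which are scaled by transcript length, so that levels of different genes can be set side by side. Sample names join a stage, the origin of the deletion (m, maternal; z, zygotic; mz, both) and a genotype.

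NrKO lacks Nr5a2, EKO lacks Esrrb and DKO lacks both. The control DHet is heterozygous for both deletions, NrHet is heterozygous for the Nr5a2 deletion, and Nrpp carries only wild-type or floxed alleles. There were 9 Nrpp, 18 NrHet and 12 NrKO oocytes. The E2C embryos were 21 mz_Nrpp, 29 mz_NrHet, 22 mz_NrKO, 12 z_NrKO and 18 m_NrKO. The L2C embryos were 7 mz_DHet, 10 mz_EKO, 10 mz_NrKO, 6 mz_DKO, 7 z_NrHet and 6 z_NrKO. At 4C there were 6 mz_DHet, 4 mz_EKO, 5 mz_NrKO and 10 mz_DKO embryos, and at 8C 21 mz_DHet and 10 of each knockout. The Cre driver, the deleted exons, the mothers and the litters are not given in the sources used here, and p-values here reflect only the spread among single embryos. The mz knockouts of a stage share the mz_DHet controls, and the E2C knockouts share mz_NrHet.

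Whole-gene Nr5a2 TPM was not lower in the 8C knockouts, with medians of 485 in mz_DHet, 656 in mz_NrKO and 790 in mz_DKO. Because the deleted part is not given and genotyping primers were added during cDNA amplification, this value checks nothing. Esrrb had medians of 48.7 TPM in mz_DHet, 20.3 in mz_EKO and 26.6 in mz_DKO at 8C. A few libraries stood apart from their groups. In 8C_mz_NrKO replicate 1, markers of the 8-cell stage summed to 2829 TPM against 167 to 1261 in the other 9, and its Cdx2 was 243 TPM against 0 to 6.79. The library E2C_mz_NrKO replicate 1 had 1253 TPM of Esrrb against a group median of 14.7, and its proteasome genes summed to 913 TPM where the group median was 4578. For the 8C genes described most fully, the mz_NrKO difference is given with and without replicate 1.

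The members whose knockout effects are described below include the activator Psme1 (ENSMUSG00000022216.17), which lies at chr14:55578123-55581529 on the plus strand of mm10. The lid gene Psmd8 (ENSMUSG00000030591.17) lies at chr7:29174188-29180701 on the minus strand, the core assembly chaperone Psmg1 (ENSMUSG00000022913.16) at chr16:95979933-95990960 on the minus strand, and the alpha ring gene Psma3 (ENSMUSG00000060073.9) at chr12:70974621-70996347 on the plus strand. The 48 genes lie on 16 chromosomes, 22 overlap another annotated gene, and the strand used in counting is not given in the sources used here. Psme1 shares 14 bases with Emc9 on the other strand, and Psma3 shares 4733 bases with 3110056K07Rik. Only Psmd1 lies on chromosome 1 with Nr5a2, at a distance of 50.7 Mb. The promoter windows of 4 genes with differing responses are shown because Nr5a2 and Esrrb proteins bind DNA at AAGGTCA-like sites. Each runs from 250 bases before to 50 bases after the start in RefSeq (GRCm38.p6), at chr14:55578244-55578543 (plus) for Psme1, chr7:29180624-29180923 (minus) for Psmd8, chr16:95990911-95991210 (minus) for Psmg1 and chr12:70974373-70974672 (plus) for Psma3. Capitals mark matches on either strand to 1 of 4 motifs. The core site of nuclear receptors was searched as AAGGTCA. The core of the antioxidant response element, which the transcription factor Nfe2l1 binds at proteasome genes, was searched as TGACNNNGC. The CCAAT box was searched by its own letters, and the GC box as GGCGGG.
Psme1: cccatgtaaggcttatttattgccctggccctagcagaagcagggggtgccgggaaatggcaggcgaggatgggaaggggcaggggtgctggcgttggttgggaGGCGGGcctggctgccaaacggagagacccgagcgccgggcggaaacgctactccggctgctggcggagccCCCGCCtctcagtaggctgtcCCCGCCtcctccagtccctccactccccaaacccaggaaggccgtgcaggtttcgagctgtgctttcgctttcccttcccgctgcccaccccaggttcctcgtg
Psmd8: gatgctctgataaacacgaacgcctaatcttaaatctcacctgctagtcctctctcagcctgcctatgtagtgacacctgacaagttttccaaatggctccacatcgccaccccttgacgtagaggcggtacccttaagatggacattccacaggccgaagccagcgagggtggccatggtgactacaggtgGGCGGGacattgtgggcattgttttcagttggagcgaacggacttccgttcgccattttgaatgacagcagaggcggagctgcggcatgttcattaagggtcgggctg
Psmg1: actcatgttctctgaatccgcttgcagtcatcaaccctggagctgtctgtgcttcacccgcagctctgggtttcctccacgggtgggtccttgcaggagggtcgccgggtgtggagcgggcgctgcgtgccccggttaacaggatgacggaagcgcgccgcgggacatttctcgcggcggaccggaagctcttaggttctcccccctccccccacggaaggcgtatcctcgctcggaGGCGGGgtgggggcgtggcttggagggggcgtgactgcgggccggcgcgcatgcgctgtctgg
Psma3: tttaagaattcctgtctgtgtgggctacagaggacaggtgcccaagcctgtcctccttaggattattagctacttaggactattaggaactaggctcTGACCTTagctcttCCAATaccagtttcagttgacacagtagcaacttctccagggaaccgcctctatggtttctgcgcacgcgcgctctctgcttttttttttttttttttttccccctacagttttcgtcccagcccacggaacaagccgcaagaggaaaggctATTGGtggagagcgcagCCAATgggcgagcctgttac

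In these windows Psme1 had 3 GC boxes, Psmd8 and Psmg1 had 1 each, and Psma3 had 1 AAGGTCA and 3 CCAAT boxes. RefSeq windows matched 40 of the 48 genes. AAGGTCA was in the windows of 3 of these 40 genes (7.5%: Psma3, Psmb10 and Psmd2), against 4.72% of all 32851 windows. The antioxidant response element core was in 15% of the 40 genes (12.4% of all windows), the CCAAT box in 35% (37.4%) and the GC box in 70% (35.3%). A match describes the letters of the window and is not evidence of binding.

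The proteasome genes as a group were more abundant at each later stage from L2C on than in the oocyte. The 48 genes together summed to 3957 ± 355 TPM (SD, n = 9) in OoMII_Nrpp, 4472 ± 574 (n = 21) in E2C_mz_Nrpp, 8693 ± 766 (n = 7) in L2C_mz_DHet, 8934 ± 1323 (n = 6) in 4C_mz_DHet and 16390 ± 2234 (n = 21) in 8C_mz_DHet. Of the 48 genes, 9 had a median of at least 100 TPM in OoMII_Nrpp and 35 did in 8C_mz_DHet. Medians stayed under 5 TPM in all 22 groups for 4 genes, which were Psma8, an alpha subunit of the male germ line, Psmb8 and Psmb9, induced by interferon, and Psmb11, of the thymus. TPM are shares of each library, so these sums do not give amounts of RNA per embryo or per cell.

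**Figure D1:**
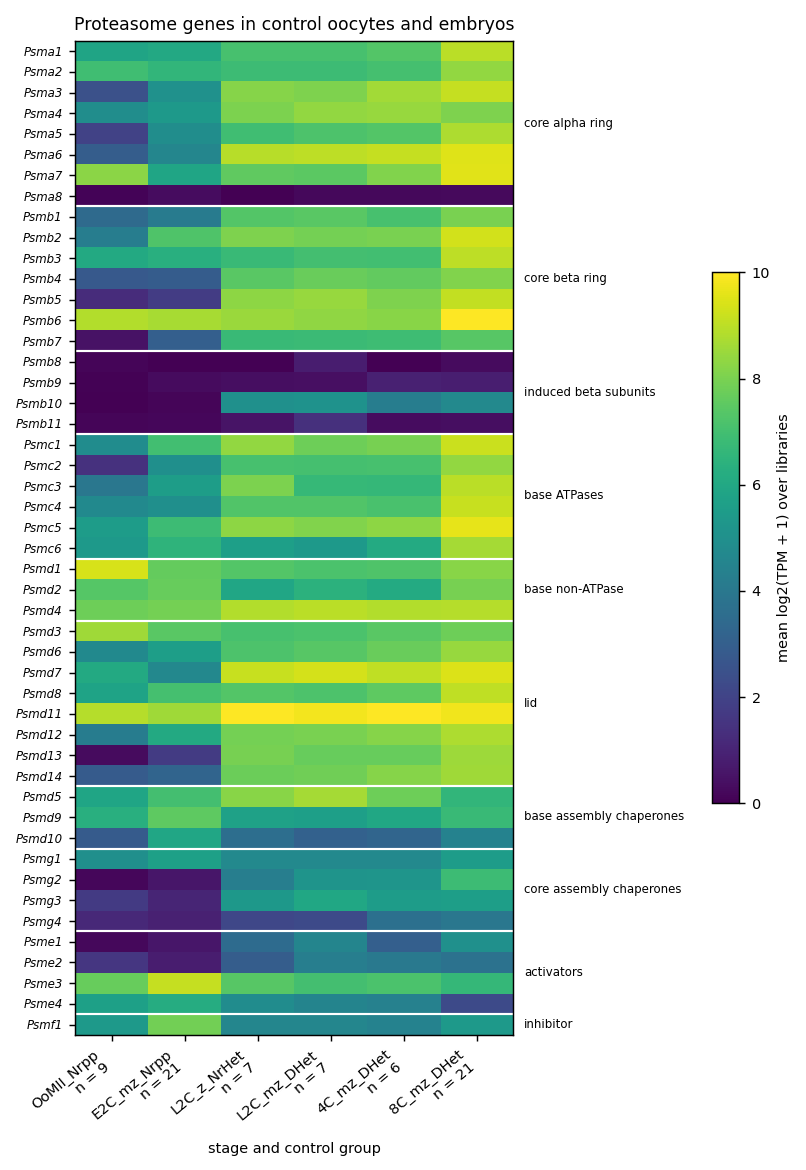
Mean log2(TPM + 1) over the libraries of 6 control groups for each of the 48 proteasome genes, ordered by class, with brighter colours for higher levels. Most ring, base and lid genes are brightest at 8C, Psmd5, Psme3 and Psme4 are lower there than at L2C, and Psma8, Psmb8, Psmb9 and Psmb11 are dark throughout.

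The classes followed different courses. The core rings summed to 1171 ± 200 TPM in OoMII_Nrpp, 1121 ± 331 in E2C_mz_Nrpp, 3373 ± 520 in L2C_mz_DHet, 3493 ± 421 in 4C_mz_DHet and 7420 ± 2092 in 8C_mz_DHet. The base and lid summed to 2290 ± 243, 2004 ± 308, 4445 ± 342, 4767 ± 988 and 8263 ± 742 TPM in the same order. Both assemblies were thus at similar sums in oocytes and at E2C and higher at L2C and 8C. The activators took another course, at 263 ± 58.3, 665 ± 167, 207 ± 42.4, 197 ± 46.8 and 160 ± 31.9 TPM, with the highest sum at E2C. The induced beta subunits were at a mean of 0.318 TPM in OoMII_Nrpp and 0.87 in E2C_mz_Nrpp, against 40.4 ± 11.7 in L2C_mz_DHet and 31.8 ± 20.7 in 8C_mz_DHet, most of it Psmb10. Core assembly chaperones summed to 37 ± 11.2 TPM in OoMII_Nrpp and 239 ± 64.3 in 8C_mz_DHet.

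**Figure D2:**
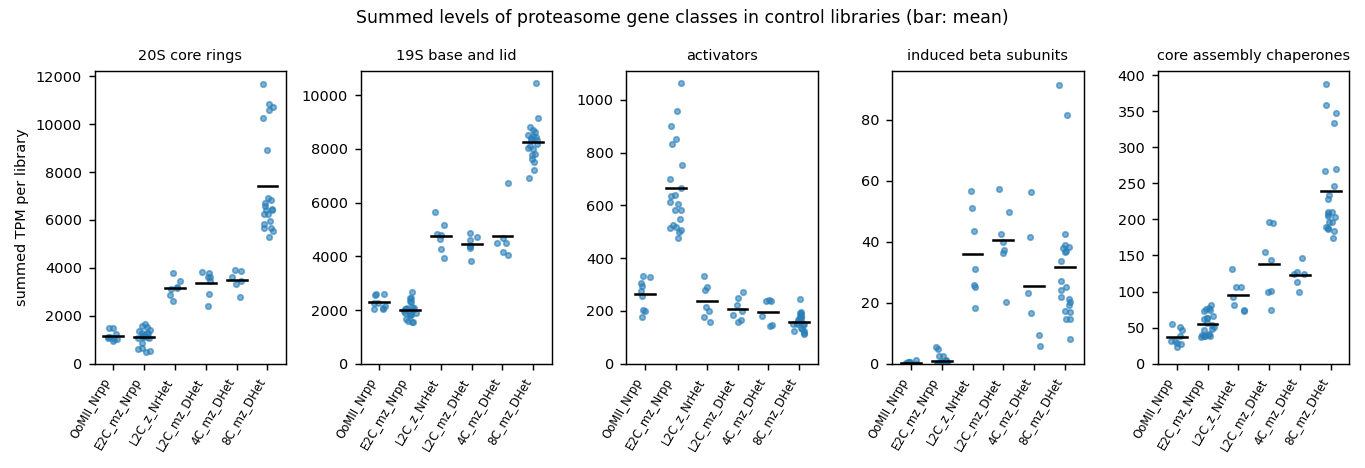
Summed TPM of 5 classes of proteasome genes in every library of 6 control groups (points), with the group mean as a bar and a separate linear axis in each panel. The core rings and the base and lid are highest at 8C, and the activators are highest at E2C, where they average 665 TPM.

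The core sums at 8C differed by the date given in the labels. In 8C_mz_DHet they were 5305 to 6928 TPM (median 6250) in the 15 libraries dated 8 March 2022, 10602 to 11677 (median 10789) in the 4 dated 15 July 2022, and 8919 and 10249 in those dated 23 February 2022. On 8 March alone the core rings were at 2410 and 3444 TPM in the pair of L2C_mz_DHet libraries and at 5305 or more in all 15 of 8C_mz_DHet, so the stage groups did not overlap within that date.

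From the oocyte to E2C, 21 of the 36 genes tested rose and 4 fell (limma on log2(TPM + 1), Benjamini-Hochberg adjusted p under 0.05), where 52% of all genes tested were called higher and 18.8% lower. The median log2 difference was 0.76 over the 36 genes and 0.65 over all genes tested. With median-of-ratios scaling the split was 17 higher and 8 lower, the share of higher calls over all genes went from 73.5% to 57.3%, and the all-gene median went to 0.21. The libraries of these stages share no date, so stage and date cannot be told apart, which also holds for the step from E2C to L2C. That step also goes from mz_Nrpp to z_NrHet embryos, so genotype cannot be told apart from stage there either. All but 1 of the 6 ATPases of the base rose. Psmc2, one of these ATPases, was at 0.432 to 3.95 TPM (median 1.74) in oocytes and at 9.38 to 51.8 (median 31.5) at E2C, a rise of 3.54 (SE 0.23, adjusted p = 1.26e-15). The oocyte and E2C ranges of Psmc2 did not overlap. All its oocyte values were under 5 TPM, the level asked of a gene to be tested, so Psmc2 was tested only through its E2C values.

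Psmd10 (gankyrin), a base assembly chaperone, was at 3.33 to 11.2 TPM (median 6.44) in oocytes and 19.6 to 109 (median 63.2) at E2C, a rise of 3.03 (SE 0.22, adjusted p = 2.69e-14) without overlap. The beta ring gene Psmb2 was at 5.68 to 42.9 TPM (median 16.9) and then 51.1 to 328 (median 156), a rise of 3.03 (SE 0.29, adjusted p = 1.54e-11). The alpha ring genes Psma5 and Psma3 rose by 2.94 (SE 0.44, adjusted p = 3.71e-07) and 2.57 (SE 0.32, adjusted p = 7.24e-09), from oocyte medians of 3.53 and 6.34 TPM to E2C medians of 29.5 and 34 TPM. Every oocyte library was below every E2C library for Psmb2, whereas the ranges of Psma5 and Psma3 overlapped.

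The 4 genes that fell were abundant in the oocyte. Psma7, an alpha ring gene, was at 180 to 679 TPM (median 275) in oocytes and at 17.2 to 168 (median 60.6) at E2C, a difference of -2.40 (SE 0.32, adjusted p = 3.17e-08) without overlap. Psmd1, the scaffold subunit of the base, was at 548 to 727 TPM (median 684) and then 112 to 332 (median 205), with a difference of -1.76 (SE 0.15, adjusted p = 1.7e-12), also without overlap. The lid genes Psmd7 and Psmd3 had oocyte medians of 60.9 and 374 TPM and E2C medians of 24.2 and 160 TPM, with differences of -1.42 (SE 0.20, adjusted p = 1.38e-07) and -1.13 (SE 0.17, adjusted p = 2.45e-07). For Psmd3 no E2C library reached the lowest oocyte value of 315 TPM.

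From E2C_mz_Nrpp to L2C_z_NrHet, 29 of 42 genes tested rose and 8 fell, where 35.3% of all genes tested were called higher and 46% lower. The median difference was 1.504 over the 42 genes and -0.43 over all genes tested, and with median-of-ratios scaling 29 rose and 7 fell of 41, with the all-gene median at -0.12. By class, 6 of 7 alpha ring genes, 6 of 7 beta ring genes, 5 of 6 ATPases and 6 of 8 lid genes rose. Psmb5, which carries the chymotrypsin-like active site of the core, was at 0 to 7.5 TPM (median 2.81) at E2C and at 258 to 370 (median 322) at L2C, a rise of 6.53 (SE 0.36, adjusted p = 2.88e-17). The lid gene Psmd13 was at 0 to 13.1 TPM (median 2.93) and then 197 to 307 (median 262), a rise of 6.21 (SE 0.48, adjusted p = 1.24e-13). Neither gene had an E2C library near the L2C range.

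Psmb10, the induced counterpart of the trypsin-like beta subunit, was listed at 0 in 9 of 9 Nrpp oocytes and in 19 of 21 E2C libraries, where its highest value was 2.38 TPM. At L2C_z_NrHet it was at 16 to 54.9 TPM (median 31), a rise of 4.90 (SE 0.27, adjusted p = 4.04e-17) without overlap. Psmb10 was under 5 TPM in every E2C library, so it was tested only because of its L2C values. Its rise and lack of overlap are therefore not independent of that choice. The whole of Psmb10 lies over the antisense gene Gm16156, and reads of the 2 genes cannot be told apart without strand. Psmd14, the deubiquitinase of the lid, had a median of 6.82 TPM at E2C and 211 at L2C, a rise of 4.55 (SE 0.32, adjusted p = 1.21e-14). Psmb4, a beta ring gene, had medians of 6.99 and 164 TPM, a rise of 4.53 (SE 0.50, adjusted p = 6.79e-10). Ranges of Psmd14, at 3.38 to 25.5 and 167 to 259 TPM, and of Psmb4, at 0 to 24.3 and 109 to 270 TPM, did not overlap.

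The 8 genes that fell were the inhibitor gene Psmf1, the base chaperones Psmd10 and Psmd9, the base subunits Psmd2 and Psmc6, the activators Psme3 and Psme4, and the core assembly chaperone Psmg1. Psmf1, the PI31 inhibitor of the core, was at 177 to 319 TPM (median 223) at E2C and 6.58 to 46.7 (median 23.3) at L2C, a difference of -3.27 (SE 0.21, adjusted p = 8.5e-16). The base chaperones Psmd10 and Psmd9 differed by -2.29 (SE 0.27, adjusted p = 3.39e-09) and -1.82 (SE 0.22, adjusted p = 5.29e-09), from E2C medians of 63.2 and 202 TPM to L2C medians of 14 and 55.5 TPM. Psmf1, Psmd10 and Psmd9 were each lower in all 7 L2C libraries than in every E2C library. Psmd2, the other scaffold of the base, differed by -1.74 (SE 0.17, adjusted p = 2.35e-11), from a median of 186 TPM to 58.7. Psmc6 differed by -0.86 (SE 0.30, adjusted p = 0.00984), from a median of 91.1 TPM to 68.2, with overlap. Psme3, the nuclear PA28 gamma activator, was at 320 to 997 TPM (median 553) at E2C and 120 to 297 (median 140) at L2C, a difference of -1.73 (SE 0.19, adjusted p = 8.2e-10).

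Between L2C_mz_DHet and 4C_mz_DHet, 0 of 47 genes tested were called by limma and 2 had an unadjusted p under 0.05, where 0.0221% of all genes tested were called. The next step, to 8C, raised 30 of 47 genes and lowered 3, where 11.6% of all genes tested were called higher and 27% lower. The median difference was 1.01 over the 47 genes and -0.44 over all genes tested. With median-of-ratios scaling 34 rose and 2 fell, and the share of higher calls over all genes went from 30.1% to 41.4%. From L2C_mz_DHet to 8C_mz_DHet 34 rose and 3 fell, where 14.8% of all genes tested were called higher and 35.6% lower, and 36 rose and 2 fell with the scaling, which moved the share of higher calls from 29.4% to 40.5%. On 8 March 2022 alone, with 2 L2C and 15 8C libraries, 26 rose and 2 fell, where 37% of all genes tested were called in either direction.

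The 4C and 8C libraries share no date, and the fitted step with dates as factors is bridged through L2C libraries of the same dates, so it can differ from the difference of the printed levels. With no date factor 32 genes were called in this step, and the share of all genes called under that setting is not given here. All 7 constitutive beta ring genes, all 6 ATPases and 6 of 8 lid genes rose from 4C to 8C. Psmc6, an ATPase, was at 46.7 to 122 TPM (median 69.2) at 4C and 259 to 1173 (median 345) at 8C, a rise of 3.29 (SE 0.36, adjusted p = 1.66e-13). Psmg2, the partner of Psmg1 in the core assembly chaperone, was at 20.1 to 56.2 TPM (median 38.1) and 84.7 to 156 (median 112), a rise of 2.73 (SE 0.52, adjusted p = 8.37e-06) that was 1.66 (SE 0.36, adjusted p = 5.66e-05) with no date factor. Neither Psmc6 nor Psmg2 overlapped between the stages. The ring genes Psmb3 and Psma1 rose by 2.17 (SE 0.42, adjusted p = 8.61e-06) and 2.06 (SE 0.25, adjusted p = 7.97e-12), from 4C medians of 129 and 157 TPM to 8C medians of 460 and 471 TPM. The ATPase gene Psmc4 was at 115 to 200 TPM (median 133) and 411 to 842 (median 552), a rise of 2.08 (SE 0.38, adjusted p = 2.97e-06). All of these genes were higher in every 8C library than in any 4C library.

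Measured from L2C_mz_DHet to 8C_mz_DHet, the largest rises were 3.42 for Psmc6 (SE 0.29, adjusted p = 2.32e-19), 2.42 for Psma7 (SE 0.39, adjusted p = 6.03e-08), 2.29 for Psmc4 (SE 0.31, adjusted p = 3.78e-10), 2.13 for Psmg2 (SE 0.43, adjusted p = 1.19e-05) and 2.03 for Psmd8 (SE 0.28, adjusted p = 1.15e-09). Psma7 had therefore fallen between oocyte and E2C and was higher at 8C, at 436 to 2123 TPM (median 648), than at L2C, at 105 to 321 (median 167).

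The 3 genes that fell toward 8C were Psme4, Psmd5 and Psme3. Psme4, the PA200 activator, was at 15.4 to 30.6 TPM (median 21.5) at L2C, 10.1 to 30.5 (median 20.7) at 4C and 0.288 to 10.2 (median 4.23) at 8C, with differences of -2.55 from L2C (SE 0.36, adjusted p = 1.98e-09) and -3.04 from 4C (SE 0.45, adjusted p = 9.78e-09). Psmd5, a base assembly chaperone, was at 338 to 460 TPM (median 412), 166 to 321 (median 200) and 56.2 to 140 (median 102), with differences of -1.70 from L2C (SE 0.22, adjusted p = 7.55e-11) and -1.06 from 4C (SE 0.27, adjusted p = 0.000764). Psmd5 did not overlap between any of these 3 stages. Psme3 differed by -0.71 from L2C (SE 0.20, adjusted p = 0.00179) and by -0.76 from 4C (SE 0.25, adjusted p = 0.00905). Under median-of-ratios scaling these became -0.30 (adjusted p = 0.19) and -0.39 (adjusted p = 0.198), so the fall of Psme3 depends on the scaling.

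Psme1 and its partner Psme2 were scarce before L2C. Psme1 was listed at 0 in 8 of 9 OoMII_Nrpp libraries, with 2.58 TPM in the other, and in 15 of 21 E2C_mz_Nrpp libraries, whose highest value was 5.53 TPM. At L2C it was at 0 to 57.8 TPM (median 14.4) in z_NrHet and at 6.01 to 76.7 (median 21.7) in mz_DHet, and the rise from E2C_mz_Nrpp to L2C_z_NrHet was 2.91 (SE 0.57, adjusted p = 2.54e-05). It was at 0 to 24.1 TPM (median 11.8) in 4C_mz_DHet and 4.89 to 59.9 (median 38.1) in 8C_mz_DHet. The differences from L2C to 8C, of 0.08 (adjusted p = 0.944), and from 4C to 8C, of 1.15 (SE 1.01, adjusted p = 0.393), did not pass. With no date factor the difference from 4C to 8C was 2.00 (SE 0.66, adjusted p = 0.00767) and passed, so this call turns on the date term. Psme2 had a median of 2.55 TPM in OoMII_Nrpp, 0 in E2C_mz_Nrpp, 22.9 in L2C_mz_DHet, 15.1 in 4C_mz_DHet and 11.4 in 8C_mz_DHet.

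In oocytes, the NrKO group was compared with both controls. Against NrHet, limma called 0 of 34 genes tested and 10 had an unadjusted p under 0.05, where 0.212% of all genes tested were called. Against Nrpp, 2 of 34 were called and 10 had an unadjusted p under 0.05, where 1.2% of all genes tested were called. Psmd6, a lid gene, was at 16.4 to 42.3 TPM (median 27.5) in Nrpp and 5.98 to 41.6 (median 16.1) in NrKO, a difference of -0.81 (SE 0.18, adjusted p = 0.0156). Psme3 was at 134 to 277 TPM (median 192) in Nrpp and 180 to 343 (median 236) in NrKO, a difference of 0.32 (SE 0.075, adjusted p = 0.0252). Both genes overlapped widely between the groups. In the authors' deposited table, against Nrpp, Psmd6 was at -0.79 (false discovery rate 0.0228) and Psme3 at 0.27 (0.0892). There Psma7, at -0.39 (0.013), and Psmc5, at -0.48 (0.0336), also had rates under 0.05.

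In E2C embryos, 0 of 39 genes tested were called by limma in any knockout. Unadjusted p was under 0.05 for 3 genes in mz_NrKO, 6 in m_NrKO and 3 in z_NrKO, each against mz_NrHet. The shares of all genes tested that were called were 5.17%, 0.245% and 0%. Leaving out the mz_NrKO library that stood apart also gave 0. In the authors' deposited table, with mz_Nrpp as control, mz_NrKO had Psma7 at 0.89 (false discovery rate 0.0162) and Psmc5 at 0.59 (0.0153). Psme1 was too low to be tested in oocytes or E2C embryos, being listed at 0 in 11 of 12 NrKO oocytes and in 17 of 22 E2C_mz_NrKO embryos.

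At L2C, limma called 0 of 44 genes tested in each of the 4 knockout comparisons. Unadjusted p was under 0.05 for 0 genes in mz_NrKO, 2 in mz_EKO, 2 in mz_DKO and 0 in z_NrKO, and the shares of all genes tested that were called were 0.127%, 0%, 0.141% and 0.099%. The median log2 difference of the 44 genes was -0.27 in mz_NrKO, -0.27 in mz_EKO and 0.16 in mz_DKO, beside 0.02, -0.01 and 0.04 over all genes tested. On 8 March 2022 there were 2 mz_DHet libraries beside 10 mz_NrKO, 8 mz_EKO and 4 mz_DKO. With date as a factor, so few controls of the same date limit the mz comparisons at L2C, those of Psme1 included. In the authors' deposited table Psme4 was at 0.64 in L2C_mz_DKO (false discovery rate 0.0097). At 4C, limma called 0 of 44 in each of the 3 knockouts. Unadjusted p was under 0.05 for 3 genes in mz_NrKO, 1 in mz_EKO and 1 in mz_DKO. Of all genes tested, 0.675%, 0% and 2.58% were called. The 4C groups were also uneven over dates, with 5 mz_DHet beside 2 mz_NrKO and 9 mz_DKO on 17 June 2022. In the authors' deposited tables Psmb6 was higher in 4C_mz_NrKO, by 0.58 (false discovery rate 0.0201) in full-length and 0.76 (0.0096) in UMI reads. Psmb6 was at 258 to 414 TPM in mz_DHet and 399 to 717 in mz_NrKO. In UMI reads these groups were at 401 to 482 and 674 to 872 TPM and did not overlap.

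Psme1 values at L2C were 6.01 to 76.7 TPM (median 21.7) in mz_DHet, 0 to 28.2 (median 8.21) in mz_EKO, 0 to 21.4 (median 4.96) in mz_NrKO and 0 to 6.47 (median 0.776) in mz_DKO. All 6 mz_DKO embryos were below the mz_DHet median, and only 1 exceeded the lowest mz_DHet value. The differences from mz_DHet were -1.77 (SE 1.10, adjusted p = 0.776), -2.10 (SE 1.07, adjusted p = 0.622) and -3.42 (SE 0.98, adjusted p = 0.166), and none passed. In the authors' deposited table the log2 fold change of Psme1 in L2C_mz_DKO was -4.08 with a false discovery rate of 0.0047. In their UMI table it was -2.28, and its false discovery rate was not under 0.05. In z_NrKO Psme1 was at 0 to 20.4 TPM (median 7.46) against 0 to 57.8 (median 14.4) in z_NrHet, a difference of -1.09 (SE 0.91, adjusted p = 0.828).

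At 4C, Psme1 was at 5.53, 6.23, 19 and 31 TPM in the 4 mz_EKO embryos. In the 5 mz_NrKO embryos it was 8.62 and 1.2 TPM in a pair and was listed at 0 in the other 3. The 10 mz_DKO embryos had 0 to 18 TPM (median 0.818) with 5 listed at 0, and the 6 mz_DHet embryos had 0 to 24.1 (median 11.8). All groups overlapped, and the differences from mz_DHet of 0.55 (SE 1.06, adjusted p = 0.968), -2.26 (SE 0.96, adjusted p = 0.344) and -1.64 (SE 0.77, adjusted p = 0.349) in mz_EKO, mz_NrKO and mz_DKO did not pass.

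At 8C, Psme1 fell in both Nr5a2 knockouts and was the member with the largest change. The 21 mz_DHet embryos had 4.89 to 59.9 TPM (median 38.1) and the 10 mz_EKO embryos 14.1 to 52 (median 28). The 10 mz_NrKO embryos had 0 to 27.9 TPM (median 1.05) and the 10 mz_DKO embryos 0 to 7 (median 0.934), with 5 listed at 0 in each. All 10 mz_NrKO and all 10 mz_DKO embryos were below the mz_DHet median, 7 and 6 of them were below its lowest value, and the groups overlapped only through the lowest controls and the single mz_NrKO embryo at 27.9 TPM. The differences were -3.70 (SE 0.42, adjusted p = 2.45e-09) in mz_NrKO and -3.60 (SE 0.42, adjusted p = 2.69e-09) in mz_DKO. In mz_EKO the difference was -0.01 (SE 0.42, adjusted p = 1), and mz_NrKO against mz_EKO gave -3.69 (SE 0.50, adjusted p = 3.55e-07). Since many libraries are listed at 0, these values depend on the added 1 TPM.

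**Figure D3:**
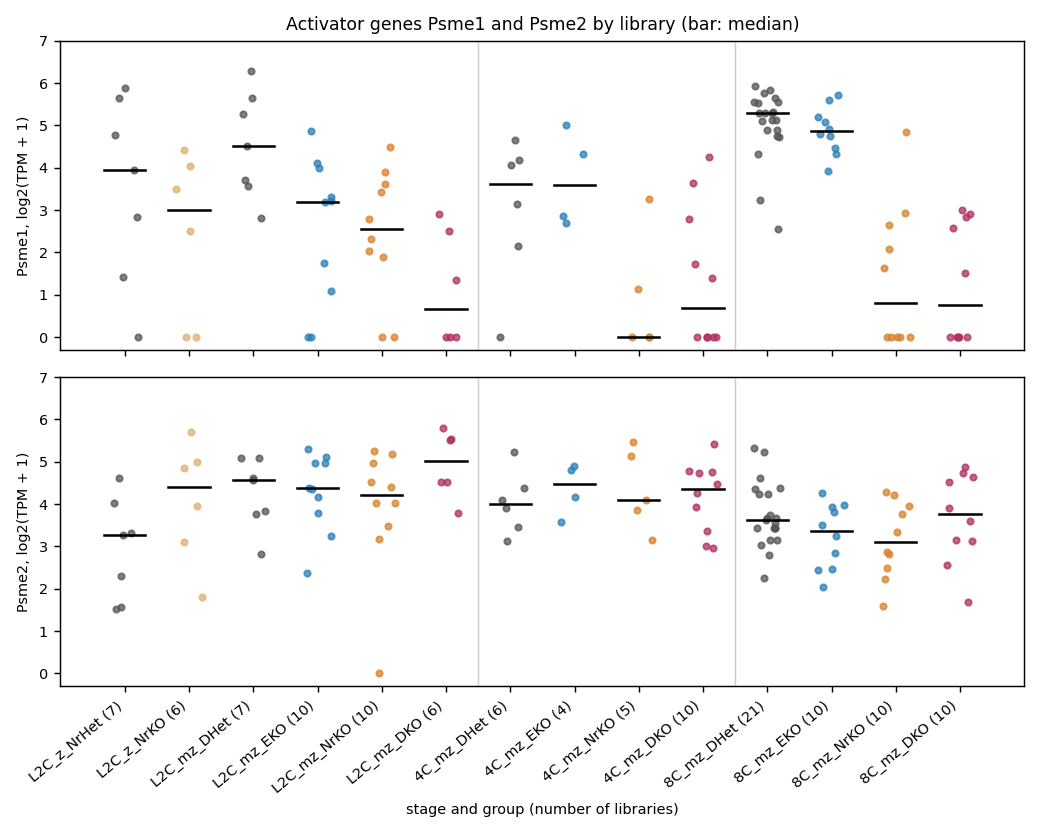
Psme1 (top) and Psme2 (bottom) as log2(TPM + 1) in every library of the 14 L2C, 4C and 8C groups (points), with the group median as a bar. At 8C the mz_NrKO and mz_DKO medians of Psme1 are near 1 TPM and those of mz_DHet and mz_EKO are 38.1 and 28 TPM, while the 4 groups overlap for Psme2.

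The difference in Psme1 was present within dates. On 8 March 2022 Psme1 was at 8.44 to 59.9 TPM in 15 mz_DHet, 0 to 6.67 in 6 mz_NrKO and 0 to 7 in 9 mz_DKO embryos, without overlap, and the differences were -4.61 (adjusted p = 1.67e-10) and -3.96 (adjusted p = 1.35e-10). On 15 July it was at 33.3, 39.1, 44.9 and 53.6 TPM in mz_DHet and at 2.09, 3.23 and 5.32 in mz_NrKO. On 23 February the single mz_NrKO embryo, replicate 1, had 27.9 TPM, between the highest and the lowest of 28.6 and 4.89 in mz_DHet. Without this library the mz_NrKO difference was -4.15 (adjusted p = 7.17e-12).

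UMI reads gave the same direction for Psme1. Its UMI level was 1.93 to 22.1 TPM (median 16.3) in 16 mz_DHet and 7.79 to 21.6 (median 15.7) in 9 mz_EKO embryos. In mz_NrKO it was 0 to 3.19 TPM, with 3 of 5 listed at 0, and in mz_DKO 0 to 4.14, with 5 of 9 listed at 0. Differences were -3.19 (SE 0.43, adjusted p = 1.09e-06) and -2.92 (adjusted p = 2.22e-08). The series divides its reads into UMI and full-length reads, so the UMI values are not independent samples. In the authors' deposited table the 8C log2 fold change of Psme1 was -3.81 in mz_NrKO, -3.57 in mz_DKO and -0.03 in mz_EKO.

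Psme1 was set against the core and the lid within each embryo, as log2(TPM + 1) of Psme1 minus the mean of the other genes. Against the 14 core genes, this difference at 8C was -6.66 to -2.57 (median -3.60) in mz_DHet, -4.60 to -2.75 (median -3.91) in mz_EKO, -9.34 to -4.41 (median -8.06) in mz_NrKO and -8.88 to -5.93 (median -7.84) in mz_DKO. Against the 8 lid genes the medians were -3.59, -4.04, -7.56 and -7.83 in the same order. Psme1 was therefore lower relative to core and lid in the groups where it was lower in TPM. The core sums of the same groups had medians of 6451, 6170, 7744 and 7283 TPM, but these pool dates in different shares. On 8 March alone the core medians were 6250, 6110, 6863 and 6970 TPM. On 15 July the core sums were lower in mz_NrKO, at 8106 to 9695 TPM, than in mz_DHet, at 10602 to 11677. Against Psme2 the medians were 1.46, 1.65, -1.91 and -2.30. Psme1 exceeded Psme2 in every mz_EKO embryo and was below it in every mz_DKO embryo.

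The other activators did not pass at 8C. Psme2 was at 3.81 to 39.2 TPM (median 11.4) in mz_DHet, 3.13 to 18.2 (median 9.43) in mz_EKO, 2.04 to 18.4 (median 7.68) in mz_NrKO and 2.24 to 28.5 (median 12.6) in mz_DKO. The Psme2 differences were -0.69 (SE 0.30, adjusted p = 0.0807) in mz_NrKO and 0.07 (adjusted p = 0.883) in mz_DKO. Psme2 has an annotated copy, Psme2b, so its reads may be split. Psme3 had medians of 111 TPM in mz_DHet and 105 in mz_NrKO (difference -0.19, adjusted p = 0.287), and Psme4 had medians of 4.23 and 2.13 TPM (difference -0.55, adjusted p = 0.165).

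Whether the knockout effect differed between L2C and 8C was tested directly. For Psme1 the effect at 8C minus that at L2C was -1.41 (SE 1.03, adjusted p = 0.584) in mz_NrKO, 2.04 (SE 1.00, adjusted p = 0.876) in mz_EKO and -0.08 (SE 1.01, adjusted p = 0.98) in mz_DKO, so no stage difference was shown. Of 47 genes tested, limma called 0 in mz_NrKO (7 with an unadjusted p under 0.05), 0 in mz_EKO (2) and 1 in mz_DKO (3), where 1.95%, 0% and 5.65% of all genes tested were called. The 1 gene was Psmd8, at -1.13 (SE 0.35, adjusted p = 0.0352), which had medians of 153 TPM in L2C_mz_DHet and 175 in L2C_mz_DKO. The call was lost with no filter (adjusted p = 0.0583), with a replicate block (adjusted p = 0.0583) and in UMI reads (adjusted p = 0.121). From L2C to 8C within each genotype, Psme1 rose in mz_EKO by 2.12 (SE 0.66, adjusted p = 0.0037), and its differences in mz_DHet, at 0.08, mz_NrKO, at -1.32 (adjusted p = 0.0813), and mz_DKO, at 0.00 (adjusted p = 0.998), did not pass. On 8 March alone the mz_NrKO difference was -1.96 (SE 0.70, adjusted p = 0.0149) and passed.

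Over the whole set at 8C, 11 of 44 genes tested were called in mz_NrKO (4 higher and 7 lower, 17 with an unadjusted p under 0.05), where 28.3% of all genes tested were called. In mz_DKO 11 of 44 were called (5 higher and 6 lower, 16 unadjusted), where 33.7% of all genes tested were called. In mz_EKO 0 of 44 were called by limma and 0 had an unadjusted p under 0.05, where 0.00919% of all genes tested were called. Of the members other than Psme1, 23.3% were called in mz_NrKO and in mz_DKO. The share of members called was thus not above the share of all genes tested in either knockout. With no date factor or with a replicate block 6 members were called in mz_NrKO, and there were 7 without mz_NrKO replicate 7 and 13 without replicate 1. The shares of all genes called under these settings are not given here. A shift of the members therefore cannot be told from a shift of the whole fit. In the main fit the median log2 difference of the members tested was -0.09 in mz_NrKO and 0.02 in mz_DKO, beside 0.00 and 0.05 over all genes tested. Against mz_EKO, mz_NrKO had 10 of 44 called (4 higher and 6 lower, 13 unadjusted), where 22.7% of all genes tested were called. Between mz_DKO and mz_NrKO 0 of 44 were called by limma and 3 had an unadjusted p under 0.05, where 0.147% of all genes tested were called.

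**Figure D4:**
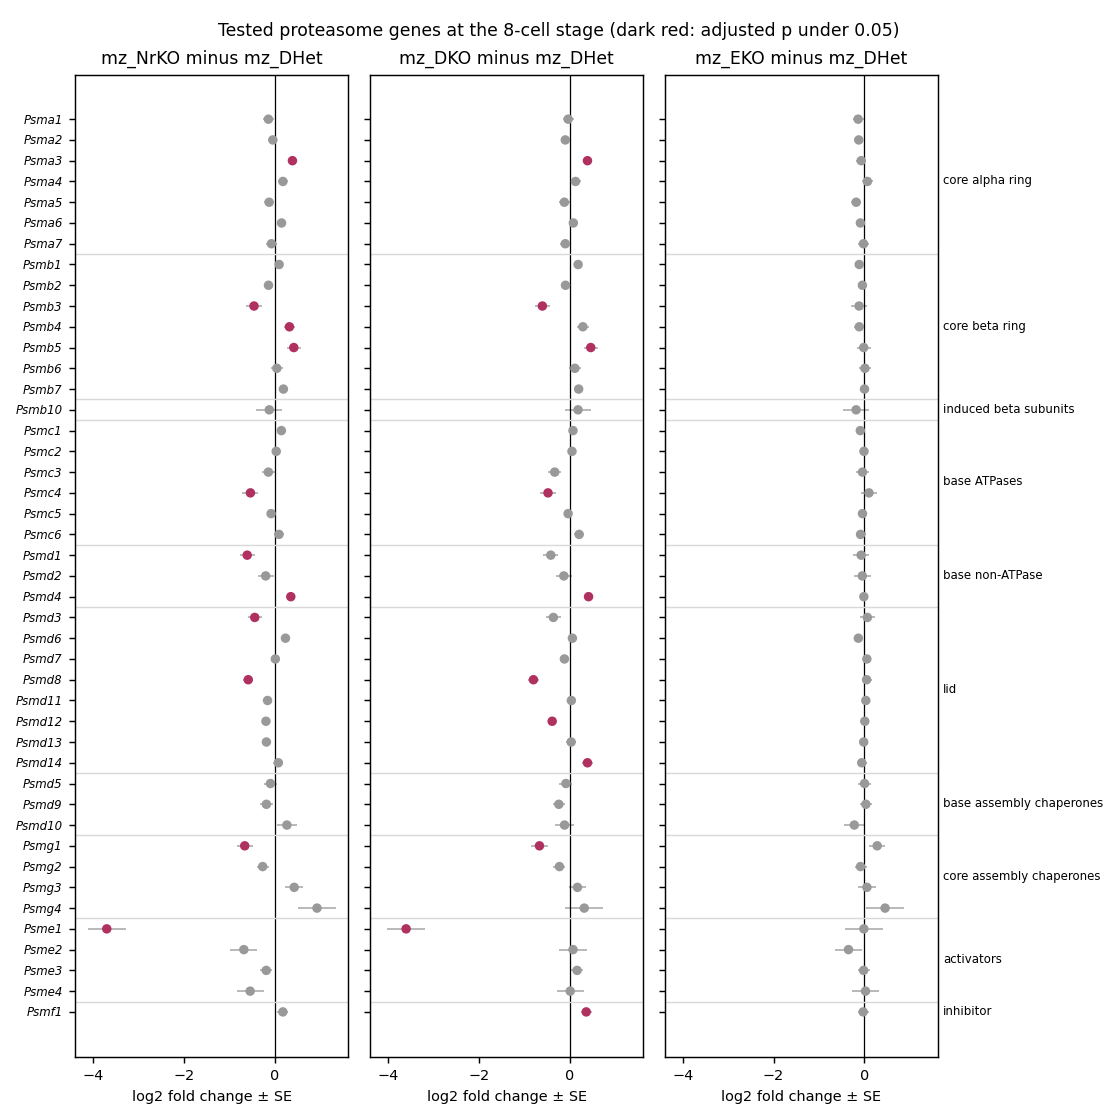
Log2 difference from mz_DHet on the log2(TPM + 1) scale, with its standard error, of the 44 proteasome genes tested at 8C in mz_NrKO, mz_DKO and mz_EKO, with dark red for an adjusted p under 0.05. Psme1 lies at -3.70 and -3.60 in mz_NrKO and mz_DKO, and the other called genes lie between -0.80 and 0.46.

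By class, 1 of 7 alpha ring genes was called in mz_NrKO and 1 in mz_DKO, and 3 of 7 and 2 of 7 constitutive beta ring genes. Of the 6 ATPases 1 was called in each, of the 3 other base subunits 2 and 1, of the 8 lid genes 2 and 3, and of the 4 core assembly chaperones 1 in each. The 3 base assembly chaperones and Psmb10, the one induced subunit tested, were not called in either. Psmb10 was at 7.99 to 87.5 TPM (median 25.2) in mz_DHet, 7.78 to 60.2 (median 29) in mz_NrKO and 15.9 to 66 (median 24.2) in mz_DKO. Psmb8, too low to be tested here, was listed at 0 in 18 of 21 mz_DHet, 10 of 10 mz_EKO, 3 of 10 mz_NrKO and 1 of 10 mz_DKO libraries, with highest values of 5.64, 0, 9.13 and 11.9 TPM. In the authors' deposited table its log2 fold change was 3.99 (false discovery rate 0.0096) in mz_NrKO and 2.57 (false discovery rate 0.0717) in mz_DKO.

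Psmd8, a lid subunit, was at 357 to 646 TPM (median 545) in mz_DHet, 446 to 714 (median 552) in mz_EKO, 217 to 462 (median 354) in mz_NrKO and 168 to 427 (median 332) in mz_DKO. All embryos of both Nr5a2 knockouts were below the mz_DHet median, and 5 mz_NrKO and 6 mz_DKO embryos were below its lowest value. The differences were -0.59 (SE 0.11, adjusted p = 5.54e-05) in mz_NrKO and -0.80 (SE 0.11, adjusted p = 1.35e-07) in mz_DKO. Psmd8 was at 0.05 (SE 0.11) in mz_EKO, and mz_NrKO differed from mz_EKO by -0.64 (SE 0.13, adjusted p = 0.000353). On 8 March alone the ranges were 442 to 646 TPM in mz_DHet, 217 to 416 in mz_NrKO and 240 to 427 in mz_DKO, without overlap. On 15 July mz_NrKO was at 291 to 382 TPM and overlapped mz_DHet at 377 to 531. On 23 February the mz_NrKO library, replicate 1, at 462 TPM was above both mz_DHet libraries, at 357 and 364, and the mz_DKO library was at 168. Without replicate 1 the mz_NrKO difference was -0.69. In UMI reads the differences were -0.70 (adjusted p = 0.000534) and -0.68.

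Psmg1, which with Psmg2 guides assembly of the alpha ring, was at 22.2 to 81.9 TPM (median 41.3) in mz_DHet, 35.4 to 65.8 (median 49.7) in mz_EKO, 16.6 to 82.2 (median 26) in mz_NrKO and 17.9 to 41.9 (median 21.7) in mz_DKO. The highest mz_NrKO value was that of replicate 1, and the other 9 embryos were at or below 39.9 TPM. Psmg1 differed by -0.67 in both, with SE 0.18 and adjusted p = 0.0031 in mz_NrKO and SE 0.18 and adjusted p = 0.00262 in mz_DKO. Without replicate 1 the mz_NrKO difference was -0.85. Levels of Psmg1 depended on the date in controls, at 27.5 to 62.9 TPM on 8 March and 66.6 to 81.9 on 15 July, and mz_NrKO was at 16.6 to 30.9 and 23.7 to 39.9 TPM on those dates. Against mz_EKO the mz_NrKO difference was -0.95 (SE 0.21, adjusted p = 0.000764).

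Psmd4, the ubiquitin receptor of the base, was at 328 to 679 TPM (median 470) in mz_DHet, 379 to 630 (median 432) in mz_EKO, 472 to 749 (median 611) in mz_NrKO and 482 to 707 (median 634) in mz_DKO. Every Nr5a2 knockout embryo was above the mz_DHet median, though the ranges overlapped. The rises were 0.35 (SE 0.092, adjusted p = 0.00328) and 0.42 (SE 0.094, adjusted p = 0.000409), and 0.36 (SE 0.11, adjusted p = 0.0141) for mz_NrKO against mz_EKO. Without replicate 1, the lowest mz_NrKO library, the rise from mz_DHet was 0.38.

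Psma3 was at 251 to 2100 TPM (median 417) in mz_DHet, 277 to 1605 (median 392) in mz_EKO, 423 to 2145 (median 666) in mz_NrKO and 426 to 2275 (median 551) in mz_DKO. It rose by 0.39 in both Nr5a2 knockouts, with SE 0.11 and adjusted p = 0.00474 in mz_NrKO and SE 0.11 and adjusted p = 0.00355 in mz_DKO. Without replicate 1, the highest mz_NrKO library, the rise was 0.40. The level of Psma3 followed the date, with mz_DHet at 251 to 567 TPM on 8 March, 981 to 1618 on 15 July and 1781 to 2100 on 23 February. Within 8 March mz_NrKO was at 423 to 712 TPM and mz_DKO at 426 to 678, above the mz_DHet median of 361. On 15 July mz_NrKO was at 879 to 1446 TPM and overlapped mz_DHet. With no date factor the Psma3 differences of 0.55 (adjusted p = 0.197) and 0.13 (adjusted p = 0.774) did not pass.

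Psmd1 was at 139 to 490 TPM (median 301) in mz_DHet, 233 to 378 (median 303) in mz_EKO, 72 to 514 (median 164) in mz_NrKO and 116 to 380 (median 248) in mz_DKO. It fell in mz_NrKO by 0.61 (SE 0.17, adjusted p = 0.00442), with 8 of 10 embryos below the mz_DHet median and the highest value, 514 TPM, in replicate 1. Without that library the Psmd1 difference was -0.72 (adjusted p = 0.000697). In UMI reads its mz_NrKO difference was -0.52 (adjusted p = 0.111). Psmd12, a lid gene, was at 329 to 704 TPM (median 435) in mz_DHet, 346 to 642 (median 420) in mz_EKO, 279 to 830 (median 351) in mz_NrKO and 279 to 477 (median 322) in mz_DKO. Psmd12 fell in mz_DKO by 0.39 (SE 0.09, adjusted p = 0.000623), with 9 of 10 embryos below the mz_DHet median.

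**Figure D5:**
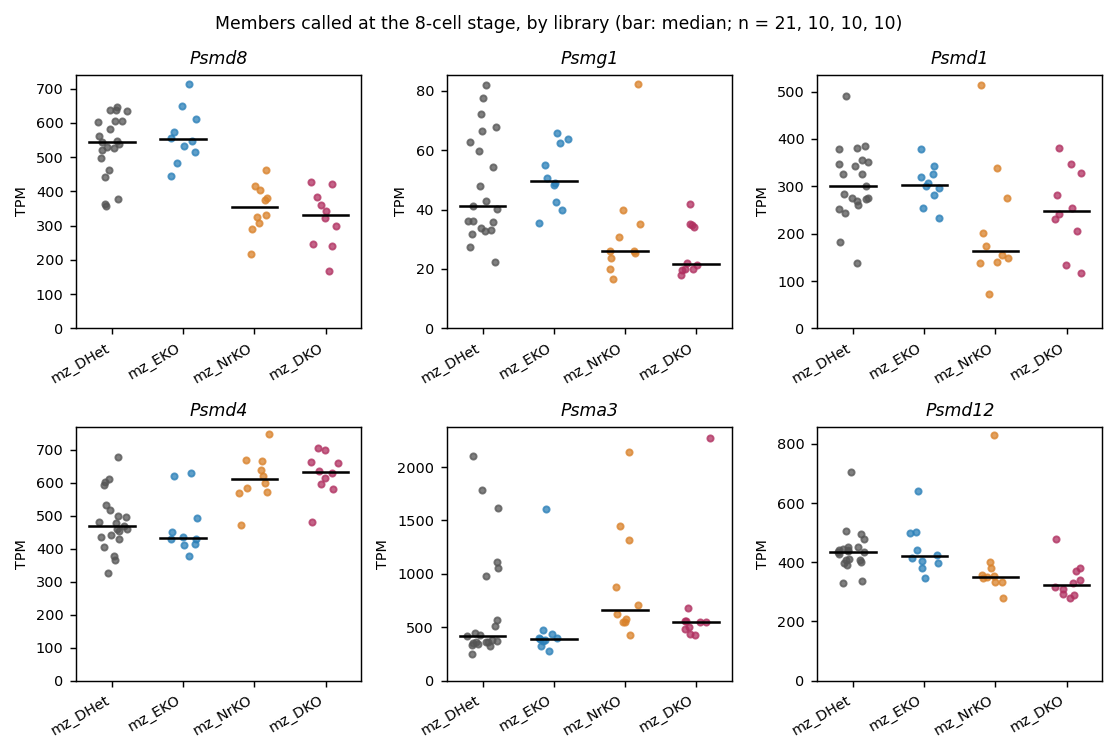
TPM in every 8C library of Psmd8, Psmg1, Psmd1, Psmd4, Psma3 and Psmd12 (points) in mz_DHet (n = 21), mz_EKO, mz_NrKO and mz_DKO (n = 10 each), with the group median as a bar. Psmd8 is lower in both Nr5a2 knockouts, with medians of 354 and 332 TPM against 545, and the highest Psma3 points, at 1605 TPM or more, come from libraries dated 23 February and, for 1 mz_DHet library, 15 July.

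The remaining calls named at 8C had larger adjusted p-values within their comparison than the members above. Psmd6 was at 287 to 428 TPM (median 336) in mz_DHet, 218 to 438 (median 316) in mz_EKO and 292 to 666 (median 404) in mz_NrKO, and rose in mz_NrKO against mz_EKO by 0.37 (SE 0.11, adjusted p = 0.0142). Without mz_NrKO replicate 1, at 666 TPM, this was 0.33 (adjusted p = 0.0278). In mz_NrKO against mz_DHet the other calls were Psmc4, an ATPase (-0.54, adjusted p = 0.0174), Psmd3 of the lid (-0.45, adjusted p = 0.0299), and the beta ring genes Psmb3 (-0.46, adjusted p = 0.0336), Psmb5 (0.42, adjusted p = 0.0348) and Psmb4 (0.32, adjusted p = 0.0496). In mz_DKO they were Psmb3 (-0.60, adjusted p = 0.00437), Psmd14 (0.39, adjusted p = 0.00549), the inhibitor gene Psmf1 (0.36, adjusted p = 0.0154), Psmb5 (0.46, adjusted p = 0.0162) and Psmc4 (-0.48, adjusted p = 0.0339). Within the beta ring, the called differences of Psmb5 and Psmb3 thus had opposite signs in full-length reads. Psmb5 was not called in mz_NrKO in UMI reads. In the authors' UMI table it was at 0.10 (false discovery rate 0.826) in mz_NrKO and 0.38 (0.117) in mz_DKO. On 23 February its mz_NrKO and mz_DKO libraries, at 382 and 307 TPM, lay between the mz_DHet values of 217 and 615. Psmb5 had medians of 551 TPM in mz_DHet, 724 in mz_NrKO and 751 in mz_DKO, and Psmb3 medians of 460, 402 and 283 TPM.

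In UMI reads, 7 of 43 genes tested were called in mz_NrKO (3 higher and 4 lower), where 25.4% of all genes tested were called, and 13 of 43 in mz_DKO (6 higher and 7 lower), where 34.6% were called. In mz_EKO, 0 were called by limma and 1 had an unadjusted p under 0.05, where 0.0112% were called. Besides Psme1 and Psmd8, the mz_NrKO calls were Psmg1 (-0.59), Psmb3 (-0.50), Psmd4 (0.45), Psmc1 (0.28) and Psma3 (0.24).

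Partners of the proteasome outside the 48 genes were listed separately, and 34 of them had values. In mz_NrKO at 8C 4 rose and 4 fell of 33 tested, 12 having an unadjusted p under 0.05, and in mz_DKO 4 rose and 2 fell. These are 24.2% and 18.2% of the partners tested, beside 28.3% and 33.7% of all genes tested, so neither share exceeds the background. In mz_EKO limma called 0 of them, and 0 had an unadjusted p under 0.05. Zfand2b, a ubiquitin-binding zinc finger protein that associates with the proteasome, was at 31.7 to 145 TPM (median 84.2) in mz_DHet, 16.3 to 67.3 (median 37.5) in mz_NrKO and 13.7 to 87 (median 39.4) in mz_DKO. It fell by 1.25 (SE 0.20, adjusted p = 3.36e-06) in mz_NrKO and by 1.06 (adjusted p = 3.59e-05) in mz_DKO. Its relatives Zfand6 and Zfand5 rose in mz_DKO by 0.95 (adjusted p = 2.13e-05) and 1.01 (adjusted p = 2.37e-05). Akirin2, which carries proteasomes into the nucleus, rose in mz_DKO by 0.76 (adjusted p = 0.000621). In mz_NrKO, Rad23b, a ubiquitin shuttle, fell by 0.52 (adjusted p = 0.00595), and Rps27a, a ubiquitin fusion gene, rose by 0.41 (adjusted p = 0.00667). Among 11 regulators of antigen presentation and the induced subunits, 5 were tested, and B2m and Ifngr1 rose in mz_DKO by 1.60 (adjusted p = 0.000111) and 1.85 (adjusted p = 0.000175). With 33.7% of all genes tested called in mz_DKO, these calls do not set the list apart.

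Stage markers moved with the 8C groups, and those of other cell types did so only in part. The 9 markers of the 8-cell stage summed to 437 to 2066 TPM (median 1442) in mz_DHet, 1180 to 2308 (median 1482) in mz_EKO, 167 to 2829 (median 602) in mz_NrKO and 268 to 910 (median 506) in mz_DKO. The 10 two-cell markers with values had medians of 11, 12.1, 93.2 and 114 TPM in the same order, and the 9 oocyte markers 27.3, 22.8, 63.6 and 108 TPM. Embryos low in Psme1 were thus in the groups with fewer 8-cell and more two-cell transcripts, and the part of this in the proteasome results was not tested. Of the 10 blood and immune markers, Cd74 had medians of 3, 7.98, 54.5 and 65.9 TPM, and the other 9 summed to medians of 2.05, 3.22, 5.16 and 11.1 TPM. The highest sum of these 9 was 84.2 TPM, in 1 mz_NrKO library. The 12 cumulus and granulosa markers summed to medians of 25.8, 23.6, 23.7 and 25.9 TPM, with 6 of the 12 at 0 in every mz_DHet and every mz_NrKO library. The 7 oviduct markers, of which Krt8 is also an 8-cell marker, summed to medians of 328, 287, 202 and 222 TPM.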

How the data were processed

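RNA of single mouse oocytes and embryos was made into libraries with a protocol derived from FLASH-seq, per the labels. The authors' deposited values per library are TPM, for full-length reads and for 5′ UMI reads, and the submitters' processing notes name cutadapt, STAR, RSEM, DESeq2 and the build mm10 without versions. The log2 fold changes and the false discovery rates (adjusted p-values) of the authors' deposited tables were used only where named. Full-length columns summed to 814735 to 995883 TPM over 55168 named genes, without 65 unnamed entries, and the UMI table holds 55247 genes. TPM keep no read counts, so the depth is unknown and no counting interval is given.

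Values were taken as log2(TPM + 1), which understates changes of low genes. A gene was tested where the number of its libraries at 5 TPM or more reached the size of the smallest group. A gene low in 1 group or stage could thus be tested through the others alone, so its difference is not independent of this filter. Fits were made with limma 3.58.1 (limma-trend, two-sided, R 4.3.3), with group and labelled date as factors, in 1 fit per stage and 1 over L2C, 4C and 8C. The steps from oocyte to E2C and from E2C to L2C had no date factor because no date is shared. The 4C and 8C libraries share none either, and in the fit over L2C, 4C and 8C their dates are linked only through L2C libraries. Benjamini-Hochberg adjustment covered all genes tested, and an adjusted p under 0.05 was a call. Differences are on the log2(TPM + 1) scale. The fits were tested on simulated data. Tables were handled in Python 3.11.15 with pandas 2.3.3, numpy 2.4.6 and matplotlib 3.10.9.

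The genes and lists were chosen with earlier results of these data known. Named genes are Psme1, up to 6 called members with the smallest adjusted p per knockout comparison, the 5 largest rises and 5 largest falls per stage step, and the called partner genes with the smallest adjusted p. The remaining calls at 8C are named in addition. Alternatives were a pseudocount of 0.1 TPM, no filter, median-of-ratios scaling, no date factor, a replicate block, a single date, another control group, UMI reads and 84 refits that each leave out 1 library. Gene positions are from GENCODE M21 on mm10.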

Additional observations from a re-analysis of the deposited data

Results flagged for a closer look

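The sets of values tested numbered 65, each of 1 gene in 1 group of 4 to 10 libraries. Of these sets, 11 held a library far from the rest. A chance rate of about 1 in 20 would need independent, normally distributed values. TPM need not be normal and the same library recurs across sets, so the 11 cannot be read against that rate. At 8C all of the libraries set apart are replicate 1 of a knockout group, dated 23 February 2022. None of these 8C libraries has another of its date in its group. In 8C_mz_NrKO replicate 1, Psme1 was 27.9 TPM (next 6.67), Psmg1 82.2 (next 39.9) and Psmd6 666 (next 428). Psma3 was 2275 TPM in 8C_mz_DKO replicate 1 (next 678) and 1605 in 8C_mz_EKO replicate 1 (next 470), and Psmd12 was 477 in 8C_mz_DKO replicate 1 (next 379).

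At earlier stages, Psmc4 was 200 TPM in 4C_mz_DHet replicate 6 (next 141) and 259 in L2C_mz_DHet replicate 1 (next 163). Psme1 was 8.62 TPM in 4C_mz_NrKO replicate 2 (next 1.2) and 2.58 in OoMII_Nrpp replicate 4, where the other 8 are listed at 0. The lowest Psmd1 value in OoMII_Nrpp, 548 TPM, was also in replicate 4 (next 643).

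The effect of mz_DKO on Psmd8 differed between 8C and L2C by -1.13 (limma interaction, adjusted p = 0.0352). It missed the threshold with no filter (adjusted p = 0.0583), with a replicate block (adjusted p = 0.0583) and in UMI reads (-0.98, adjusted p = 0.121).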

How the results depend on the processing

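No difference of a named gene changed sign where it passed in the main or the alternative fit. Differences that passed in neither could change sign. Psme1 in mz_EKO at 8C ranged from -0.114 to 0.087 when 1 library was left out. Counts of called members that moved were, in mz_NrKO at 8C, 6 with no date factor, 6 with a replicate block and 7 in UMI reads, against 11. Leaving out 1 library at a time gave 7 to 13, with 7 without mz_NrKO replicate 7 and 13 without replicate 1. In mz_DKO at 8C these refits gave 10 to 15, and in mz_NrKO against mz_EKO 7 to 11. Except for UMI reads, the shares of all genes called under these settings are not given here, so the counts do not single out the members. Comparisons with 0 calls had 1 in E2C mz_NrKO, 1 in L2C mz_EKO, 2 in L2C mz_NrKO and 1 from L2C to 4C with no date factor, 1 in E2C m_NrKO with median-of-ratios scaling, and with the other control group 2 in OoMII NrKO and 1 in L2C mz_NrKO. With no date factor the 4C to 8C difference of Psme1 was 2.00 (adjusted p = 0.00767). Psme1 in mz_NrKO ranged from -4.15 to -3.57 and in mz_DKO from -3.80 to -3.47 when 1 library was left out.

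Among named genes, Psmg1 in mz_NrKO missed the threshold with the replicate block (adjusted p = 0.0832), and Psmd6 in mz_NrKO against mz_EKO did in UMI reads (adjusted p = 0.0903). The fall of Psme3 from L2C to 8C did so with no date factor (-0.34, adjusted p = 0.124). The cause of these changes was not tested. Same-numbered libraries had correlations of deviations between -0.19 and 0.43, and at most 2 libraries of a comparison, of 4 to 10 pairs, correlated best with their own number, so the numbers were not taken as pairs. The unknown depth limits low genes such as Psme1.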
